A study of Homo sapiens with 6 samples.

Results

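Cadherins are calcium-dependent adhesion proteins whose extracellular repeats bind the same or a related cadherin on the neighbouring cell. Classical cadherins hold cells together at adherens junctions and are anchored to actin through the catenins. Protocadherins form the largest branch of the superfamily, and the clustered ones are used in combinations that give each neuron a surface identity. The Fat and Dachsous proteins are giant cadherins that bind each other across cell borders and orient cells within a tissue. Fibroblasts are known to carry N-cadherin (*CDH2*) and cadherin-11 (*CDH11*) rather than the epithelial E-cadherin (*CDH1*).

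The genes described here are the protein-coding genes whose symbols name a cadherin (*CDH*), a protocadherin (*PCDH*, clustered *PCDHA*, *PCDHB* and *PCDHG* genes included), a Fat cadherin (*FAT1* to *FAT4*) or a Dachsous cadherin (*DCHS1*, *DCHS2*). There were 93 such members among 60663 genes in the table. They were measured in CCD18Co cells, an established line of normal human colon fibroblasts, by sequencing of ribosomal RNA-depleted total RNA. In 3 libraries the cells had received an siRNA pool against *LTBP2* (siLTBP2), and in 3 libraries a pool of non-targeting siRNAs (siNT). *LTBP2* encodes a secreted protein of the extracellular matrix that sits with the microfibrils. Both groups were exposed to siRNA and a lipid transfection reagent for 6 h and harvested 48 h after transfection, so that an untransfected control was not part of the comparison. The comparison asks which genes follow the transient silencing of *LTBP2* in 1 line with 1 siRNA pool. The labels number the libraries without saying that they came from separate cultures, so that the p-values measure the spread between these libraries, which may be technical.

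The libraries held 44663424 to 53576899 counts. Levels are given in CPM, the counts scaled to library size. In siNT *LTBP2* was at 25.0, 23.1 and 21.2 CPM, and in siLTBP2 at 6.49, 8.61 and 6.00 CPM, a log2 fold change of -1.72 (SE 0.15, adjusted p = 6.6e-05). All p-values below come from edgeR's quasi-likelihood test, two-sided and adjusted by Benjamini-Hochberg over the 16920 genes tested, and a gene is said to rise or fall where the adjusted p is under 0.05. The fibroblast markers were all tested and summed to 10000 to 13000 CPM in siNT and 10000 to 14100 CPM in siLTBP2, and 1 of the 10, *PDGFRB*, fell (log2 -0.60, adjusted p = 0.00252). Of the epithelial markers, 7 of 10 had at most 3 counts in any library, and the glial and neuronal markers *SOX10*, *S100B* and *ELAVL4* were at 0 in every library. Of the immune markers, *PTPRC* had at most 8 counts and *CD3E* at most 1.

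Of the 93 members, 48 had enough counts to be tested. The other 45 were near the floor of the assay, with 17 at 0 in every library, 16 more at no more than 3 counts, and *PCDH12* the highest at 19 counts. A count of 0 allows a level of up to 0.0688 CPM in the smallest library, taken as 3 counts, and covers counting error only. *PCDH10*, *CDH13* and *DCHS1* were higher in siLTBP2, and *PCDHGA1* was lower. This makes 3 members higher, where 9.76% of all tested genes were higher, and 1 lower, where 9.51% of all tested genes were lower. The remaining 44 did not pass, so that 4 of 48 members changed against 19.3% of all tested genes changing in either direction.

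No member reached the study's thresholds for a deregulated gene in the quasi-likelihood test used here. These thresholds were an adjusted p under 0.01 and a fold change above 2. The edgeR quasi-likelihood test put 0 members past them and 2.57% of all tested genes, with 8 members at an unadjusted p under 0.05, where 32.3% of all tested genes were. The likelihood ratio test, which the study had used, and DESeq2 each placed 1 member there, *PCDHGA1*. The groups did not overlap in 8 members, 3 of them higher and 5 lower in siLTBP2, against 37% of all tested genes. The sign was uneven, with a negative log2 fold change in 40 of 48 members, where 50.7% of all tested genes were negative. The median over the tested members was -0.20, and that over all tested genes -0.01.

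The most abundant member was the giant cadherin *FAT1*, known as a regulator of cell polarity, migration and growth. Levels are compared between genes as CPM per kilobase of exonic length that no other gene shares on the same strand. On this scale *FAT1* was at 109 ± 18.8 in siNT (SD, n = 3) and at a mean of 98.1 in siLTBP2. It was followed by the protocadherin *PCDH18* at 50.2 ± 4.07 and by the gamma protocadherin *PCDHGC3* at 17.5 ± 1.33 CPM per kilobase. *FAT1*, *PCDH18* and *PCDHGC3* each stood clear of the next gene in every siNT library. *DCHS1*, *PCDHGA11*, *FAT4* and *CDH2* came next, between 13.9 and 8.35 CPM per kilobase, and each of these neighbours overlapped in siNT, while *CDH2* stood clear of the gene after it. The set ended with *CDH24* at 5.79, *CDH6* at 4.87 and *PCDH10* at 4.13 CPM per kilobase, again with overlapping neighbours. None of the 10 most abundant members was a clustered alpha or beta protocadherin.

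**Figure D1:**
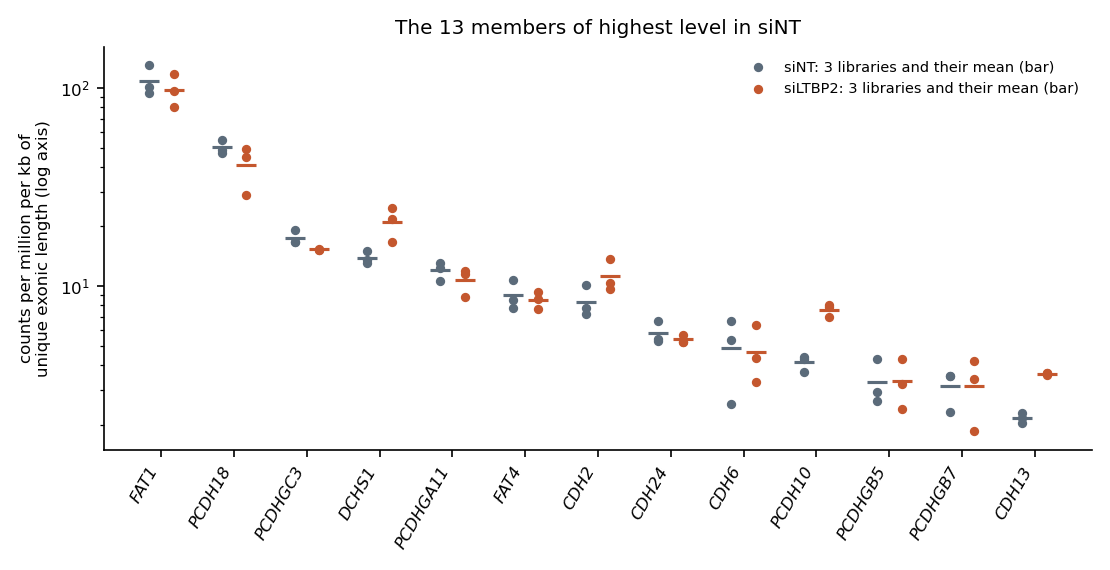
Level of the 13 members most abundant in siNT, as CPM per kilobase of unique exonic length on a log axis, with each dot a library and each bar the mean of 3. *FAT1* lies highest at a siNT mean of 109, and *DCHS1*, *PCDH10* and *CDH13* show siLTBP2 dots above all siNT dots.

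Among the classical cadherins, *CDH2* was the only type I gene with enough counts to test, and it did not pass. N-cadherin is the classical cadherin of mesenchymal cells. *CDH2* (chr18:27932879-28177946, minus strand, GRCh38) had 66.4, 61.8 and 86.8 CPM in siNT and 83.3, 89.3 and 117 CPM in siLTBP2. The groups overlapped, because the highest siNT library lay above the lowest siLTBP2 library. Within each library number the siLTBP2 value was the higher. The log2 fold change was 0.43 (SE 0.15, adjusted p = 0.0713). *CDH2* did pass in the likelihood ratio test (adjusted p = 0.0356) and in DESeq2 (adjusted p = 0.0358), and without siNT replicate 3 (0.59, adjusted p = 0.0188) or siLTBP2 replicate 1 (0.53, adjusted p = 0.0457). It was at 0.27 without siLTBP2 replicate 3 (adjusted p = 0.192), and passed in 2 of 6 leave-outs. With the library number as a block in the quasi-likelihood fit, *CDH2* passed (0.43, adjusted p = 1.64e-05). That setting called 6131 genes in all against 3261 in the main fit, and the labels do not say what a number shares. With other scalings *CDH2* did not pass (adjusted p = 0.0594 to 0.0982).

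The other type I genes were all but unread. *CDH1*, the E-cadherin of epithelia, had 0, 2 and 1 counts in siNT and 1 count in each siLTBP2 library. *CDH3*, the P-cadherin, had at most 1 count in any library. *CDH15*, the M-cadherin of muscle precursors, had at most 8 and *CDH4*, the R-cadherin, at most 6. A change in these genes was not detectable at this depth.

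Of the 13 type II cadherins 4 were tested and none passed in the main fit. *CDH11*, the cadherin of connective tissue and synovial fibroblasts, had 33.0, 26.5 and 17.2 CPM in siNT and 46.0, 30.3 and 21.97 CPM in siLTBP2. Its log2 fold change of 0.36 (SE 0.27, adjusted p = 0.398) came with overlapping groups, and ran from 0.03 without siLTBP2 replicate 1 to 0.58 without siLTBP2 replicate 3. Within each library number the siLTBP2 value was the higher. With the number as a block *CDH11* passed (0.34, adjusted p = 0.00133), while it passed in 0 of 6 leave-outs. *CDH6*, known from the kidney and from several carcinomas, was the most variable of the abundant members, at 60.8, 28.7 and 76.0 CPM in siNT and 49.3, 37.3 and 72.2 CPM in siLTBP2. In both groups the library numbered 2 was the lowest, and the log2 fold change was -0.06 (SE 0.31, adjusted p = 0.923). *CDH24* changed by -0.10 (adjusted p = 0.592) and *CDH9* by -0.05 (adjusted p = 0.895). *CDH5*, the VE-cadherin that defines endothelium, was at 0 in every library but siLTBP2 replicate 3, where it had 2 counts.

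*CDH13* rose, and it was the only one tested of 5 *CDH* genes outside the 2 classical types. T-cadherin lacks the cytoplasmic tail of its relatives, is anchored in the membrane by a lipid, and is known as a receptor for adiponectin in endothelium and smooth muscle. *CDH13* (ENSG00000140945, chr16:82626965-83800640, plus strand, GRCh38) had 23.8, 22.5 and 25.3 CPM in siNT and 40.1, 39.1 and 40.2 CPM in siLTBP2. The groups lay far apart, with little spread in siLTBP2. The mean went from 23.9 ± 1.43 to 39.8 ± 0.62 CPM (SD, n = 3), a 1.67-fold rise (log2 0.74, SE 0.09, adjusted p = 0.000365). The antisense gene *CDH13-AS2*, which shares exonic positions with *CDH13*, had at most 3 counts in any library.

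The summed markers of the 2 cell types in which T-cadherin is known went opposite ways. The smooth muscle markers summed to 230 to 242 CPM in siNT and 376 to 418 CPM in siLTBP2, and 2 of the 4 rose, *ACTG2* and *SMTN*, while the defining markers *MYH11* and *DES* had at most 5 and 2 counts. The endothelial markers summed to 30.7 to 36 CPM in siNT and 24.4 to 27 CPM in siLTBP2, with *TIE1* higher and *FLT1* lower, and *PECAM1* had at most 12 counts and *KDR* at most 1. The part of either marker list in the *CDH13* result was not tested.

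Within the Fat and Dachsous group *DCHS1* rose, while its partner *FAT4* did not pass the test. Dachsous-1 is the ligand of FAT4, and the pair is known from planar polarity and from the growth of mesenchyme in the kidney and gut. *DCHS1* (ENSG00000166341, chr11:6621330-6655809, minus strand, GRCh38) had 162, 146 and 141 CPM in siNT and 267, 234 and 180 CPM in siLTBP2. All siLTBP2 libraries were above all siNT libraries, with siLTBP2 replicate 3 nearest to them. The mean went from 149 ± 10.97 to 227 ± 43.7 CPM (SD, n = 3), a 1.52-fold rise (log2 0.60, SE 0.13, adjusted p = 0.00956). The call held with each library left out in turn, with adjusted p-values of 0.000365 to 0.0455.

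*FAT4* had 228, 165 and 181 CPM in siNT and 198, 163 and 184 CPM in siLTBP2, a log2 fold change of -0.08 (SE 0.13, adjusted p = 0.725). *FAT1* had 2100, 1639 and 1528 CPM in siNT and 1906, 1556 and 1290 CPM in siLTBP2, a log2 fold change of -0.15 (SE 0.16, adjusted p = 0.577). The ranges of both Fat genes overlapped between the groups. *FAT2* and *FAT3* had at most 2 and 3 counts, and *DCHS2* was at 0 in every library.

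Of the 11 non-clustered protocadherins *PCDH9*, *PCDH10* and *PCDH18* were tested, and *PCDH10* rose. It was the largest rise of all 48 tested members. Protocadherin-10 is a delta protocadherin known from axon outgrowth and as a gene silenced by promoter methylation in several carcinomas. *PCDH10* (ENSG00000138650, chr4:133149294-133208606, plus strand, GRCh38) had 43.6, 37.6 and 44.8 CPM in siNT and 81.5, 79.7 and 71.2 CPM in siLTBP2. The groups did not overlap and each library of siLTBP2 was far above each of siNT. The mean went from 42.0 ± 3.87 to 77.5 ± 5.51 CPM (SD, n = 3), a 1.84-fold rise (log2 0.88, SE 0.10, adjusted p = 0.000229).

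*PCDH9*, another delta protocadherin, had the largest negative value outside the clusters and lay just outside the threshold. It had 5.71, 2.05 and 4.23 CPM in siNT and 2.09, 1.95 and 2.16 CPM in siLTBP2. The siNT libraries were scattered, and siNT replicate 2 fell within the narrow siLTBP2 range. The log2 fold change was -0.95 (SE 0.31, adjusted p = 0.054), and it ran from -1.26 without siNT replicate 2 (adjusted p = 0.005) to -0.61 without siNT replicate 1 (adjusted p = 0.201), passing in 1 of 6 leave-outs. *PCDH9* was added to the genes named after its values were seen.

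*PCDH18*, the second most abundant member, had 367, 325 and 315 CPM in siNT and 330, 299 and 193 CPM in siLTBP2. The log2 fold change was -0.29 (SE 0.17, adjusted p = 0.26), and siLTBP2 replicate 3 was the lowest library by a wide margin. *PCDH7*, *PCDH8*, *PCDH17* and *PCDH20* were at 0 in every library.

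**Figure D2:**
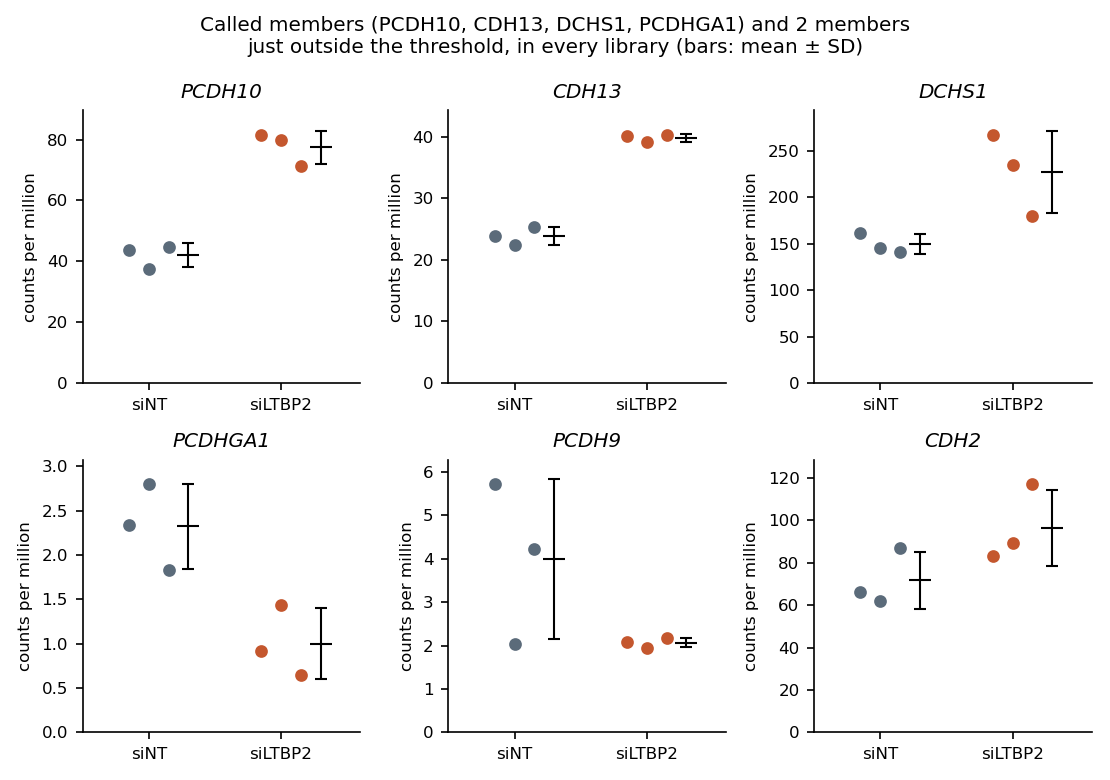
CPM of *PCDH10*, *CDH13*, *DCHS1*, *PCDHGA1*, *PCDH9* and *CDH2* in each of 3 siNT and 3 siLTBP2 libraries (dots), with the mean and SD beside them. The groups are apart in the first 4 genes, while 1 siNT library of *PCDH9* (2.05 CPM) and 1 of *CDH2* (86.8 CPM) lie within the siLTBP2 range.

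The clustered protocadherins lie in 3 tandem arrays on the long arm of chromosome 5. In the alpha and gamma arrays each gene has its own large first exon, which encodes the whole extracellular part and has its own promoter, and is spliced to constant exons at the end of the array. Beta genes consist of a single large exon. Reads in the constant exons cannot be given to one gamma gene, and of the 6303 exonic bases of *PCDHGA1*, 4126 are its own. The paralogs are also alike in sequence, so that the split of counts between them is uncertain.

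The arrays differed in whether they were read at all. Of the 15 alpha genes none was tested, and the highest had 6 counts. Their summed counts were 19, 18 and 15 in siNT and 11, 6 and 8 in siLTBP2, or sums of 0.35 ± 0.07 and 0.18 ± 0.07 CPM (SD, n = 3). The alpha sum was lower in each siLTBP2 library than in each siNT library, at a level that no single gene resolved. Of the 16 beta genes 14 were tested and of the 22 gamma genes all.

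The beta array summed to 21.7, 17.3 and 13.1 CPM in siNT and 19.8, 15.4 and 9.53 CPM in siLTBP2, so that the siLTBP2 mean was 85.6% of the siNT mean and the groups overlapped. The gamma array summed to 166, 155 and 133 CPM in siNT and 147, 141 and 115 CPM in siLTBP2, or 88.7% of siNT, also with overlap. In both arrays and both groups the library numbered 3 had the lowest sum. Within each number the siLTBP2 sum was below the siNT sum in both arrays, though the labels do not say what a number shares.

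A few genes carried each array. *PCDHGC3* and *PCDHGA11* held 37.8% and 28.8% of the gamma counts in siNT, and 37.3% and 28.9% in siLTBP2. *PCDHGC3* is one of the C-type genes, which are known to be expressed without the random choice that governs the others. In the beta array the leading genes were *PCDHB13* with 21.7% and *PCDHB14* with 16.4% of the siNT counts. *PCDHGC3* had 62.1, 54.6 and 54.5 CPM in siNT and 49.9, 49.7 and 49.7 CPM in siLTBP2. It was lower in every siLTBP2 library by a small step, a log2 fold change of -0.20 (SE 0.09, adjusted p = 0.141). *PCDHGA11* had 47.7, 44.6 and 38.6 CPM in siNT and 41.7, 43.1 and 31.8 CPM in siLTBP2, with overlap (log2 -0.17, SE 0.13, adjusted p = 0.411).

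**Figure D3:**
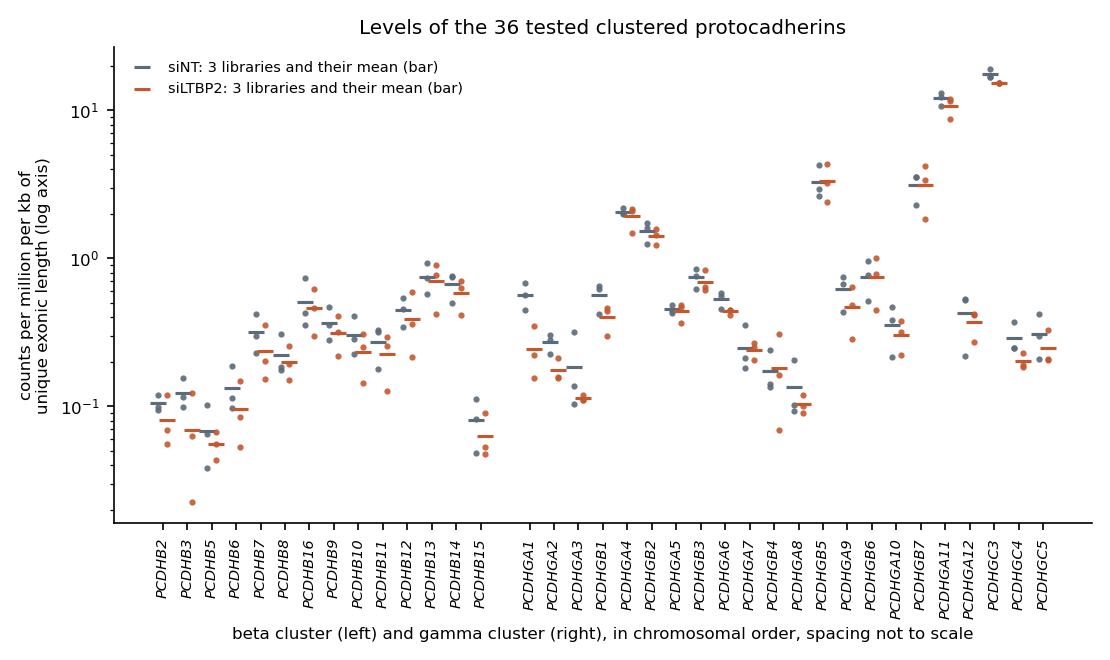
CPM per kilobase of unique exonic length (log axis) of the 36 tested clustered protocadherins in the order in which they lie on the chromosome, with each dot a library and each bar the mean of 3. *PCDHGC3* (siNT mean 17.5) and *PCDHGA11* (12.01) stand above the rest, and at *PCDHGA1* the siLTBP2 dots lie below the siNT dots.

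*PCDHGA1*, the first gene of the gamma array, was the only member that fell. *PCDHGA1* (ENSG00000204956, chr5:141330514-141512975, plus strand, GRCh38) had 2.34, 2.80 and 1.84 CPM in siNT and 0.92, 1.44 and 0.65 CPM in siLTBP2, from 108, 138 and 99 against 40, 68 and 34 counts. The groups did not overlap. The siNT mean was 2.32-fold the siLTBP2 mean as fitted (log2 -1.22, SE 0.29, adjusted p = 0.0152). Without siNT replicate 2, its highest library, the log2 fold change was -1.06 and did not pass (adjusted p = 0.0666). Its share of the gamma counts was 1.53% in siNT and 0.742% in siLTBP2.

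The genes next to *PCDHGA1* also had negative values, none past the test. *PCDHGA2* was at -0.63 (adjusted p = 0.0966), *PCDHGA3* at -0.70 (adjusted p = 0.299) and *PCDHGB1* at -0.49 (adjusted p = 0.22), after which *PCDHGA4* was at -0.11 (adjusted p = 0.702). This run of neighbours was picked out after their values were seen. Besides *PCDHGA1*, the groups did not overlap in *PCDHGA2*, *PCDHGA6*, *PCDHGC3* and *PCDHGC4*, all lower in siLTBP2. This makes 5 of 22 gamma genes without overlap, where 37% of all tested genes had none.

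Of the 36 tested clustered protocadherins 33 had a negative log2 fold change, with a median of -0.23. All 14 beta genes were negative, from -0.85 in *PCDHB3* to -0.10 in *PCDHB13*, with a median of -0.29, and none passed or had groups apart. In the gamma array 19 of 22 were negative, with a median of -0.20, and the exceptions *PCDHGB4*, *PCDHGB5* and *PCDHGB7* were between 0.01 and 0.04. These genes share libraries, an array and similar sequences and are not independent. The size of the median moved with the library left out. It was -0.08 without siLTBP2 replicate 3 and -0.14 without siNT replicate 1. It was -0.40 without siLTBP2 replicate 1 and -0.38 without siNT replicate 3. With the library number as a block the median was -0.24, and 35 of 36 genes were negative. Outside the arrays 12 members were tested, 7 of them negative, with a median of -0.05.

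**Figure D4:**
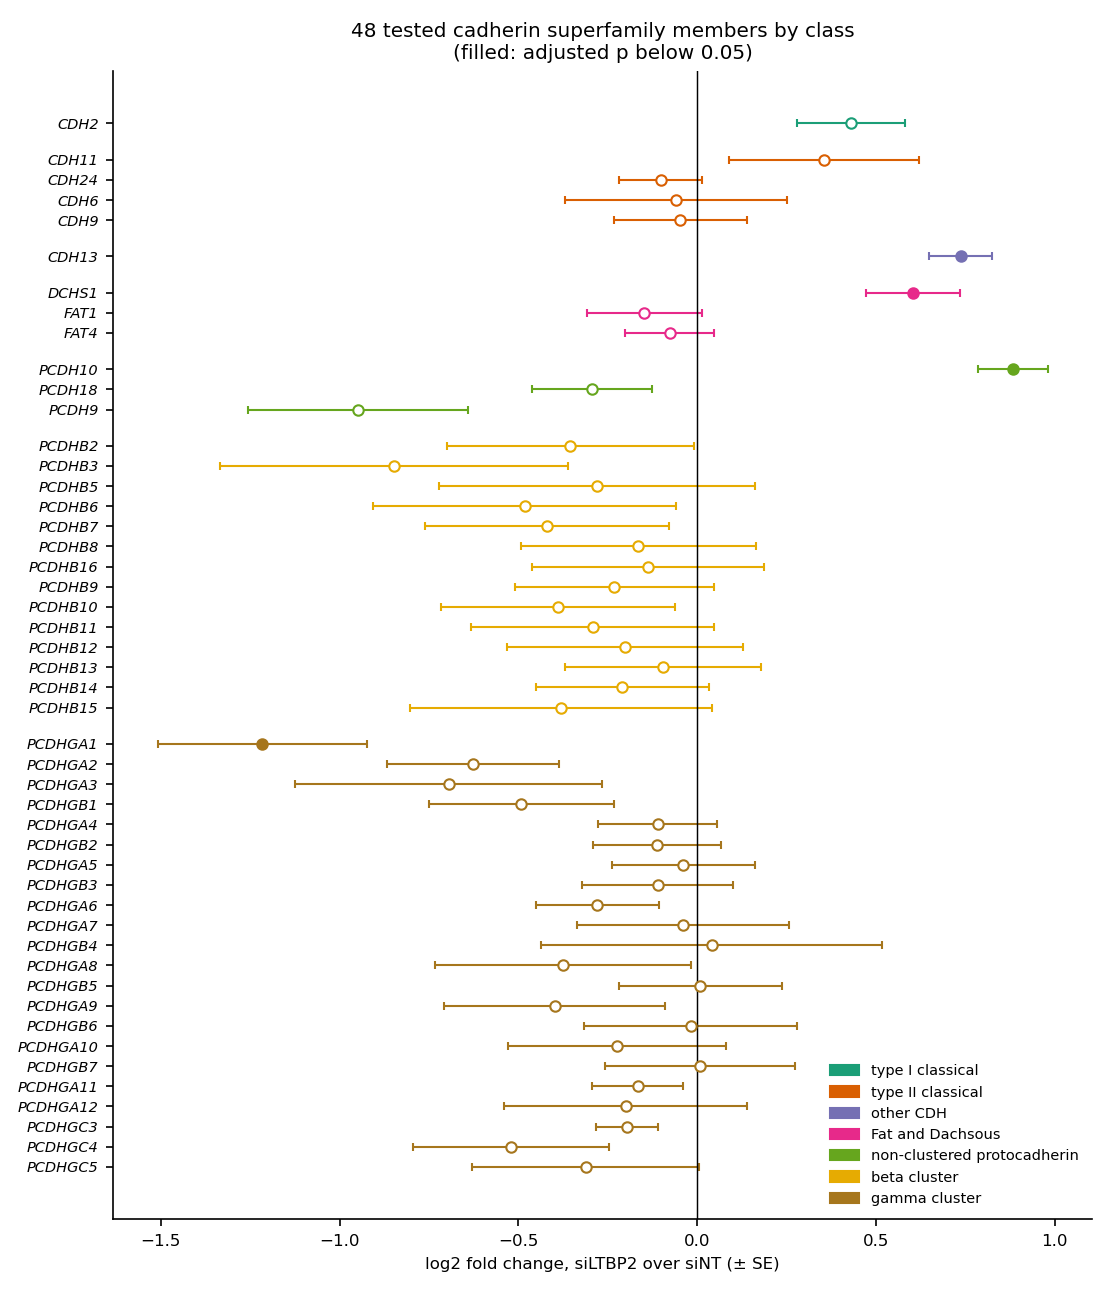
Log2 fold change, siLTBP2 over siNT, with its standard error for the 48 tested members by class, and array genes in chromosomal order. Filled points passed the test: *PCDH10* (0.88), *CDH13* (0.74) and *DCHS1* (0.60) on the right and *PCDHGA1* (-1.22) on the left, and 33 of 36 array genes are left of 0.

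Promoters of the arrays are shown because 17 of 20 matched gamma genes held the same short word there. RefSeq promoter windows (GRCh38.p14, 250 bases before to 50 after the start) were matched for 71 members. As written, the word CGCTGT was held by 24 of 47 clustered genes, the most among all words of 6 bases, with AAAATA next at 23. The word CGCTGT was chosen in this way after the promoters were read. Searched on both strands, it was in 55.8% of the windows of clustered genes and in 11.2% of all promoter windows. It was in 84% of gamma windows, in 7 of 13 alpha genes, and in 1 of 14 beta genes, *PCDHB3*. Where it was found as written it lay 38 to 199 bases before the start, with a median of 52. The 5 gamma genes whose groups did not overlap and *PCDHB3* are shown, on the plus strand, with the word in capitals.
PCDHGA1 (chr5:141330405-141330434): aggactgtgggcgcCGCTGTtcactaatct
PCDHGA2 (chr5:141338705-141338734): aggcctctgagcgtCGCTGTtgaccaccta
PCDHGA6 (chr5:141373837-141373866): aggactctaagcgtCGCTGTtgaccaacct
PCDHGC3 (chr5:141475882-141475911): gggactctgtgtgcCGCTGTcggccaatga
PCDHGC4 (chr5:141484954-141484983): ctgagcccgggagcCGCTGTctgccaatcg
PCDHB3 (chr5:141100395-141100424): cgaacgcatggtggCGCTGTtgactaagaa

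Within the gamma array the median log2 fold change was -0.22 over 17 genes with the word and -0.11 over 3 without it, a description of few genes. The core of the motif of CTCF, the factor known to loop these promoters, was searched as AGGNGGC on both strands. It was in 35.9% of all windows, 7.69% of those of clustered genes and 0 of 25 gamma windows, which says only that these letters are not there. The E-box CACCTG, the letters bound by the repressors of *CDH1*, was in 20.6% of all windows and 10.1% of those of members.

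A further word, GCACCCA in the 3′ UTR, was chosen with earlier results of these libraries known, and its effect over all genes was not tested here. Of the tested members 24 of 48 held the word in the canonical 3′ UTR, or 50%, against 11.8% of 12303 tested coding genes with a 3′ UTR. This count is 1 site many times over, since all 22 gamma genes end in the same constant 3′ UTR. The other carriers were *PCDHB9* and *CDH13*, which has 2 copies. The sites are shown with the word in capitals (GRCh38, plus strand).
gamma constant 3′ UTR (chr5:141511228-141511254): ctccttacctGCACCCAggcctcagag
PCDHB9 (chr5:141190455-141190481): atgagccaccGCACCCAgcctacaata
CDH13, first copy (chr16:83795343-83795369): agtgctccagGCACCCAgctttgtctg
CDH13, second copy (chr16:83798288-83798314): tagtgcagttGCACCCAggcacgagct

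*CDH13*, with 2 copies, was at 0.74 on the log2 scale (adjusted p = 0.000365). *PCDHB9*, with 1 copy, was at -0.23 on the log2 scale (adjusted p = 0.619), beside a median of -0.29 over all 14 tested beta genes. Among the gamma genes, which share the site, the log2 fold change ran from -1.22 to 0.04.

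Genes that work with cadherins were taken from a list of 56, drawn up by role. Earlier results of these data were known when it was made. Of the 56 genes, 34 were tested. Of these, 8 rose and 5 fell, against the 9.76% and 9.51% of all tested genes given above, and 0 were deregulated in the edgeR quasi-likelihood test, in the likelihood ratio test and in DESeq2, while 19 had an unadjusted p under 0.05 in the first, where 32.3% of all tested genes did. Their median log2 fold change was 0.02. With each library left out in turn, 4 of the 13 calls held throughout, those of *CTNNB1*, *NECTIN2*, *AFDN* and *FURIN*. The other 9 were lost in at least 1 case, and the list then held 5 to 8 calls, the fewest without siNT replicate 1. Over all tested genes the calls also became fewer, at 2158 to 2781 with a library left out against 3261 with all libraries.

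Among catenins and plaque proteins, *CTNNB1*, the β-catenin that binds classical cadherins and carries Wnt signals, rose. Its mean went from 318 ± 30.5 to 437 ± 10.1 CPM (SD, n = 3), a log2 fold change of 0.46 (SE 0.09, adjusted p = 0.00726). *ARVCF*, a p120-type catenin, fell by 0.50 on the log2 scale (adjusted p = 0.0304) and kept the call in 1 of 6 leave-outs. *CTNNA1*, which links the complex to actin, was at 0.18 (adjusted p = 0.217), *CTNND1* at -0.01 (adjusted p = 0.983) and *VCL* at -0.05 (adjusted p = 0.78). Of the 8 tested plaque genes, 1 rose and 1 fell.

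The nectins and their adaptor afadin, which mark out junctions before cadherins gather there, had no negative value among 4 tested genes. *AFDN* rose from 67.7 ± 2.77 to 101 ± 1.94 CPM (log2 0.58, SE 0.08, adjusted p = 0.000665). *NECTIN2* rose from 105 ± 11.004 to 152 ± 9.58 CPM (log2 0.53, SE 0.10, adjusted p = 0.00409). *NECTIN3* was at 0.34 (adjusted p = 0.0605) and *NECTIN1* at 0.13 (adjusted p = 0.448).

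*FURIN*, the protease that removes the propeptide of newly made cadherins and other precursors, fell. Its mean went from 126 ± 20.7 CPM to 70.4 ± 1.502 CPM, a log2 fold change of -0.84 (SE 0.12, adjusted p = 0.000734). The shedding protease *ADAM10* was at -0.27 (adjusted p = 0.157) and did not pass.

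Other genes of the cadherin family outside the member list went both ways. *CELSR1* (log2 -1.32, SE 0.41, adjusted p = 0.044) and *CELSR3* (log2 -0.41, SE 0.11, adjusted p = 0.0221), which encode polarity cadherins of the Flamingo type, fell. The level of *CELSR1* went from 0.58 ± 0.22 to 0.23 ± 0.08 CPM, a level of few reads, and DESeq2 did not call it (adjusted p = 0.0596). *CLSTN1*, a calsyntenin, rose (log2 0.36, SE 0.11, adjusted p = 0.0462). *VANGL1*, a polarity protein listed with the Fat and Dachsous modifiers, rose by 0.31 on the log2 scale (adjusted p = 0.0163).

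The repressors of *CDH1* were all tested, and *TWIST2* rose (log2 0.44, SE 0.11, adjusted p = 0.0212) while *ZEB2* fell (log2 -0.37, SE 0.09, adjusted p = 0.0163). *TWIST1* was at -0.42 (adjusted p = 0.0576), and *SNAI1*, *SNAI2* and *ZEB1* did not pass. *CDH1* itself stayed at 0 to 2 counts in both groups.

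Of the genes known to regulate the clustered protocadherin promoters, *CTCF* was at -0.07 (adjusted p = 0.634). *SMCHD1*, a chromatin protein known to silence these arrays, rose from 153 ± 11.4 to 189 ± 7.86 CPM (log2 0.31, SE 0.09, adjusted p = 0.0307). *WAPL*, which releases cohesin from chromatin, rose by 0.27 (SE 0.08, adjusted p = 0.0413), and the cohesin subunit *RAD21* was at 0.26 (adjusted p = 0.0615). The *SMCHD1* call held in 1 and the *WAPL* call in 0 of 6 leave-outs.

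**Figure D5:**
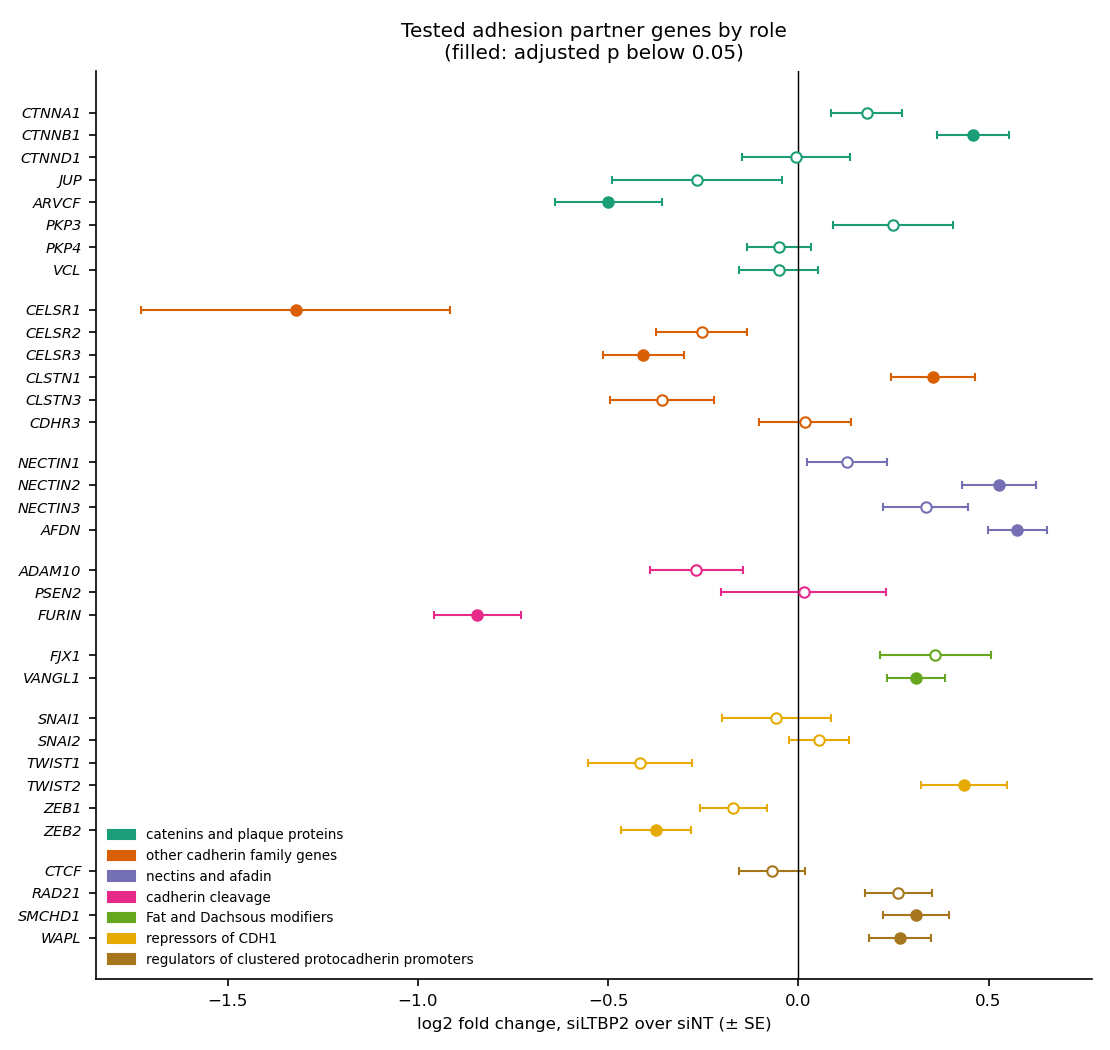
Log2 fold change, siLTBP2 over siNT, with its standard error for the tested partner genes by role, 1 of them not shown, filled where the test was passed. *AFDN* (0.58) and *NECTIN2* (0.53) lie furthest right, and *CELSR1* (-1.32) and *FURIN* (-0.84) furthest left.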

How the data were processed

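RNA of CCD18Co fibroblasts (3 siNT and 3 siLTBP2 libraries) had been prepared as stranded total RNA after ribosomal depletion. The authors aligned the reads to GRCh38 with STAR (2.7.1a per the submitters' processing notes) in 2 passes, and the deposited table holds raw counts per gene from HTSeq (0.11.2). The annotation release, strand setting and overlap mode were not given in the sources used here. How reads of shared exons were treated therefore bears on the gamma protocadherins.

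Genes were filtered with filterByExpr, scaled by TMM and tested in edgeR 4.0.16 (R 4.3.3) with glmQLFit and glmQLFTest, where the study had used the likelihood ratio test. P-values were adjusted by Benjamini-Hochberg over 16920 genes, and the standard error is the fold change divided by the root of F. The code was tested on simulated data. CPM used the scaled library sizes, except for the sums over markers, which used the unscaled total counts. The likelihood ratio test, DESeq2 1.42.0, other scalings and filters, a replicate block and the leaving out of each library were alternatives. Exonic lengths, 3′ UTRs and coordinates came from GENCODE 44, which held all 93 members, 90 with the same start, and promoters from RefSeq. With 3 libraries a group, an exact permutation test cannot go below p = 0.1 and was not used.

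Named genes were the members past the threshold or with a fitted fold change above 2, the 10 most abundant members, *CDH1*, *CDH2*, *CDH3*, *CDH5*, *CDH6*, *CDH11*, *CDH13*, *FAT1*, *FAT4*, *DCHS1*, *PCDH7* and *PCDH18*, and the partner genes past the threshold. Members and lists were chosen with earlier results of these data known. Other genes are named as examples or as counts of few, chosen after their values were seen. Values of 2 listed genes are not reported here.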

Additional observations from a re-analysis of the deposited data

How the results depend on the processing

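The log2 fold change of *LTBP2* ran from -1.89 to -1.61 over the leave-outs. The members that rose numbered 5 without the filter on low counts (with *CDH2* and *CDH11*), and 3 to 4 with a library left out. Those that fell numbered 2 in the likelihood ratio test, in DESeq2 and with total counts (with *PCDH9*), 3 without the filter (also *PCDH18*), and 1 in each leave-out, where without siNT replicate 2 it was *PCDH9*. Deregulated members numbered 1 in the likelihood ratio test, in DESeq2 and without the filter (*PCDHGA1*), 0 to 1 in the leave-outs, and 4 at an adjusted p under 0.05 with a fold change above 1.5. Over all genes, 3261 were called in the main fit, 3803 in the likelihood ratio test, 3483 in DESeq2 and 3872 without the filter. What moved these counts was not tested. The partner genes called numbered 5 to 8 in the leave-outs, where 2158 to 2781 genes in all were called. With a library left out, *FAT4* ran from -0.17 to 0.063, *CDH24* from -0.16 to 0.018 and *CDH6* from -0.37 to 0.25, so that the sign of each turned, while none passed. Negative array genes numbered 25 to 36 of 36 in the leave-outs, 36 with total counts and 21 of 23 at 1 CPM in 3 libraries. Over 29 genes and 231 values under alternatives that kept all libraries, 211 kept direction and call, 15 gained and 5 lost the call, and 0 turned. Over 174 values with a library left out, 126 kept both, 40 lost and 3 gained the call, and 5 turned.

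Same-numbered libraries deviated from their group means with correlations of 0.30, 0.08 and 0.43. Against libraries of other numbers the correlations were -0.28 to 0.02 for number 1, -0.16 to 0.10 for number 2 and -0.39 to -0.10 for number 3. Numbers 1 and 3 were thus more alike across groups than other numbers were. The labels do not say what a number shares, so the numbers were not taken as pairs. A pairing, if there was one, is left out of the main test. With the replicate block, 5 members rose (*CDH2* and *CDH11* besides the 3), 5 fell (*PCDH9*, *PCDH18*, *PCDHGA2* and *PCDHGC3* besides *PCDHGA1*), 1 was deregulated, and 22 partner genes changed, where 6131 genes in all were called against 3261 without it. Low counts limit what single array genes can show.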
